A study of Mus musculus with 10 samples.

Results

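Osteogenic and follicle-like mesenchyme of the E14.5 mouse lower incisor was described in 1602 cells, 26.3% of the 6091 E14.5 cells that passed the filter on quality (95% interval 25.2% to 27.4%) with 17175 passing cells in the series. A cell was included if at least 2 of 6 genes (*Ibsp*, *Sfrp4*, *Alpl*, *Matn4*, *Stmn2* and *Runx2*) had a UMI, at most 1 of 5 genes of the dental papilla (*Crym*, *Tril*, *Egr3*, *Fgf3* and *Vegfd*) did, and at most 2 of 6 epithelial genes (*Epcam*, *Krt5*, *Krt14*, *Krt17*, *Dsp* and *Dsc3*) did. A UMI (unique molecular identifier) counts 1 captured RNA molecule. The cells were set against 2669 cells called other mesenchyme, which met the same epithelial limit, fell outside the rule and had a UMI for at least 2 of *Prrx1*, *Twist1*, *Pdgfra* and *Col3a1*. A further 2 groups were used beside it. Papilla-like cells, of which there were 700, had at least 2 papilla genes and at most 1 of the 6; 632 of them lay within other mesenchyme and 68 had too few of its 4 genes. The other 2037 cells of other mesenchyme are called remaining mesenchyme. Because the 6 genes chose the cells, their levels are a description and not a finding.

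Around a developing tooth, the neural crest mesenchyme divides into the dental papilla, which will make dentin and pulp, and the dental follicle, which surrounds the tooth germ and later gives rise to cementum, periodontal ligament and alveolar bone. Bone forms next to the follicle from mesenchyme in which RUNX2 switches on the osteoblast program, followed by SP7 and then by matrix proteins such as bone sialoprotein (*Ibsp*), osteopontin (*Spp1*) and, late, osteocalcin (*Bglap*). Alkaline phosphatase (*Alpl*) supplies the phosphate for mineral, and secreted Wnt antagonists such as SFRP4 limit Wnt signaling in the same tissue.

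Single cells of wild type NMRI embryos were sequenced with 10x Genomics 3' chemistry, with lower incisor buds dissected for the 2 later stages and whole mandibles for E11.5, from more than 1 litter a stage. Developing incisor is the labelled tissue, of which 4 samples were E14.5, 4 the earlier stage and 2 the later. The buds held bone-forming and follicle tissue only as far as the dissection included it. All barcodes of a stage carried the same suffix and none was repeated, so cells could not be assigned to their samples. Each stage was therefore read as 1 pooled sample without replicates, no test was made, and stage and sample preparation cannot be told apart. Intervals are exact 95% intervals (Poisson for counts, Clopper-Pearson for shares); where a count is 0, the limit given is that of 3 counts over the total. Both cover counting error only.

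The E14.5 matrix held 8192 barcodes and 31670249 UMIs. Osteogenic and follicle-like cells were shallower than the groups they were set against, with a median of 2981 UMIs a cell against 3744 in other mesenchyme, 6245.5 in papilla-like cells and 3203 in remaining mesenchyme, and 1391 of the 1602 had at least 2000. The share of mitochondrial UMIs was close in members and other mesenchyme, at medians of 2.02% and 1.97%. The E14.5 and E16.5 matrices shared 16 barcodes, of which 1 was a cell of the rule. Scrublet's own threshold called 0 doublets, which is no working call, and 107 of the 342 cells with the highest scores were members. Without those cells 83 genes were at least 2-fold higher in members than in other mesenchyme, and 54 lower, beside the 72 and 47 given later.

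Of the 6 genes, *Runx2*, the transcription factor that starts the osteoblast program, was detected most widely, with 2320 UMIs in 1208 members (75.4%). Its level was 420 CPM (UMIs of the gene per 1e6 UMIs of the group, interval 403 to 438) in members, 124 in remaining mesenchyme (116 to 133) and 150 in papilla-like cells (139 to 161), so it was present on both sides of the rule. *Sfrp4* had 2453 UMIs in 1135 members and stood at 444 CPM (427 to 462), against 80.3 in remaining mesenchyme (74.0 to 87.0) and 5.46 in papilla-like cells (3.54 to 8.07). *Alpl* had 1081 UMIs in 768 members, and 196 CPM (184 to 208) against 20.1 (17.0 to 23.5) and 0.874 (0.238 to 2.24). The 5 genes other than *Runx2* were nearly absent from papilla-like cells, where *Ibsp* and *Matn4* had 0 UMIs. Papilla-like cells could have at most 1 of the 6 genes, so the low levels are partly set by their definition. The 65 cells with at least 2 genes of both sets, left out of both groups, had 126 CPM of *Ibsp* and 126 of *Sfrp4*.

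*Stmn2*, which encodes a tubulin-binding protein best known from neurons, stood at 253 CPM (240 to 267) with 1399 UMIs in 619 members. Of 8 other neuronal markers, 7 had a UMI in members and *Stmn3* had none, and their sum was 16.3 CPM in members and 17.1 in other mesenchyme. *Matn4*, a matrilin of the extracellular matrix, had 324 UMIs in 270 members (58.7 CPM, 52.5 to 65.4). *Ibsp* had 1513 UMIs in only 231 members (14.4%), and its 274 CPM (260 to 288) came from few cells. The gene lies at chromosome 5:104299171-104311469 on the plus strand of GRCm38. One member held 325 of these UMIs, 20 members held 10 or more, 112 members held 1, and the 27 members with the most held 1127.

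**Figure D1:**
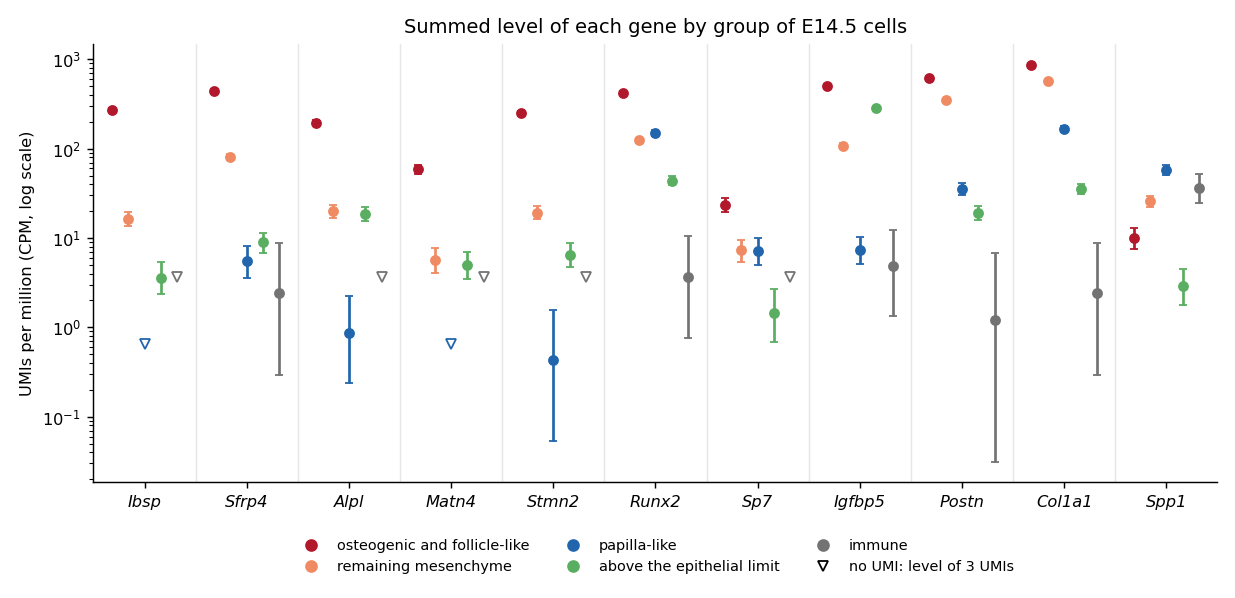
Summed level of 11 genes in 5 groups of E14.5 cells, in CPM on a log scale, with exact 95% Poisson intervals; open triangles mark the level of 3 UMIs where a group had none. The 6 genes at the left chose the cells; *Igfbp5*, *Postn*, *Col1a1* and *Sp7*, which did not, were also highest in osteogenic and follicle-like cells, and *Spp1* was lowest there among the 3 mesenchymal groups.

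Free RNA in the droplets can place a UMI in a cell that does not express a gene. Immune cells (117 cells, median 6542 UMIs) and endothelial cells (143 cells, median 3231 UMIs), called by at least 3 of 8 markers each, were used as a measure of it. Members were left out of both classes, as were cells with a UMI for at least 2 of the mesenchyme genes. Among members, 8 cells had at least 3 immune markers and 11 had at least 3 endothelial markers. The low detection of the rule's genes in these classes is therefore partly set by their definition. *Ibsp* was detected in 0 of the 117 immune cells, which by the limit of 3 counts allows a share of up to 2.56%, and in 0 of the 143 endothelial cells (up to 2.10%). *Sfrp4* had a UMI in 1.71% of immune and 1.40% of endothelial cells, and *Runx2* in 2.56% and 1.40%. *Stmn2* reached 5.59% of endothelial cells (2.45% to 10.7%), below its 38.6% in members.

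The genes of the rule were detected in different combinations. Exactly 2 of the 6 had a UMI in 852 members, 3 in 522, 4 in 182, 5 in 43 and all 6 in 3. *Sfrp4* with *Runx2* was the commonest set, in 306 members, followed by *Sfrp4*, *Alpl* and *Runx2* in 163, *Sfrp4* and *Alpl* in 113, and *Alpl* and *Runx2* in 104. Each gene was also measured in cells called by at least 2 of the other 5, so that it did not choose them. On a log2 scale with 10 CPM added to both groups, the ratio of these cells over other mesenchyme was then 2.49 for *Ibsp* (2.36 to 2.63), 2.03 for *Stmn2* (1.89 to 2.16), 1.97 for *Alpl* (1.82 to 2.11), 1.63 for *Matn4* (1.43 to 1.82), 1.57 for *Sfrp4* (1.47 to 1.67) and 0.93 for *Runx2* (0.84 to 1.03). With the full rule the values were 3.80, 3.56, 3.16, 2.34, 2.85 and 1.57. Each of the 6 was higher in cells called by the others, and *Runx2*, which other mesenchyme also held, least so.

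At the edge of the rule, 852 members with 2 of the 6 genes had 392 CPM of *Igfbp5*, 571 of *Postn*, 760 of *Col1a1* and 15.5 of *Sp7*. The 1232 cells just outside, with 1 of the 6, had 173, 379, 565 and 9.86, and the 750 members with 3 or more had 627, 667, 967 and 31.4. No mesenchyme gene was required in these groups, so each can hold cells of other types. Members with 3 or more were only slightly deeper than the cells just outside, at medians of 3146.5 and 3067.5 UMIs. A further 65 cells had at least 2 genes of both sets and were neither members nor papilla-like, and 62 of them lay within remaining mesenchyme; their median was 8825 UMIs. Of the members, 299 had under 2 of the 4 mesenchyme genes (median 2376 UMIs, against 3153 in the rest), and 214 had a UMI for 1 papilla gene.

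The promoter sequences of RefSeq (GRCm38.p6) held 6 promoters for 4 of the 6 genes: *Ibsp*, *Alpl*, *Matn4* and *Runx2*. The core motif of RUNX factors was searched in the 250 bases before each start site, as TGTGGT or ACCACA on either strand; these 2 strings do not overlap each other. It occurred in 4614 of 32851 promoters (14.05%), in the *Runx2* promoter of the rule's genes and in none of the other 5. The stretch is shown because *Runx2* is the most widely detected gene of the rule; capitals mark the match, 80 bases before the start site, at chr17:44814690-44814719 on the minus strand.
*Runx2*: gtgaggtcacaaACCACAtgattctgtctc
A match of letters is a description and not a binding site.

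Outside the 21 genes of the rule, 4655 genes passed a filter on low values (detected in 10% or more of the cells of 1 of the groups, with a total of 50 counts or more) and were compared between osteogenic and follicle-like cells and other mesenchyme. At least 2-fold higher were 72 genes (1.55%) and at least 2-fold lower 47 (1.01%), with a median log2 ratio over all 4655 of -0.05. With each cell thinned to 2000 UMIs, and the same cells, 35 genes were higher and 15 lower of 2731 that passed; when the rule itself was applied to the thinned cells, 14 and 17 of 2716. As the mean of the cells' own CPM, 37 were higher.

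*Igfbp5*, which binds insulin-like growth factors and is abundant in bone matrix, had the highest ratio of any of these genes. It lies at chromosome 1:72857932-72874884 on the minus strand. Its level was 509 CPM in members and 70.7 in other mesenchyme, a log2 ratio of 2.69 (2.58 to 2.79), and it was detected in 49.2% and 13.4% of cells. In papilla-like cells it was at 7.43 CPM and in remaining mesenchyme at 107. *Igfbp5* was not limited to mesenchyme, since the 825 cells above the epithelial limit had 288 CPM (276 to 301). *Slc1a3*, a glutamate transporter, followed at 1.77 (1.60 to 1.92), with 108 CPM against 24.7.

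*Maf*, a transcription factor of the large Maf family, had a ratio of 1.72 (166 against 43.6 CPM). *Sox9*, the chondrogenic factor that marks skeletal progenitors, had 1.71 (67.9 against 13.8 CPM). *Epha3*, an ephrin receptor, had 1.76 and *Ncam1*, the neural cell adhesion molecule, 1.41 (413 against 149 CPM). These genes were also higher in members than in papilla-like cells, with ratios of 3.22 for *Maf*, 2.76 for *Sox9*, 2.25 for *Epha3* and 2.18 for *Ncam1*.

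*Postn*, the periostin of periosteum and periodontal ligament, stood at 619 CPM in members, 235 in other mesenchyme, 349 in remaining mesenchyme and 35.2 in papilla-like cells. Its ratio over other mesenchyme was 1.36 (1.29 to 1.43). *Sulf1*, a heparan sulfate sulfatase, had 1.45, *Cthrc1*, a secreted collagen triple helix protein, 1.38, *Clec11a*, a secreted factor that promotes osteogenesis, 1.36, and *Mxra8*, an adhesion molecule, 1.5. *Kctd12* (1.43), *Gxylt2* (1.42) and *Epdr1* (1.39) were also among the 15 genes with the largest ratios.

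*Dlx2*, a homeobox gene of the branchial arches and dental mesenchyme, had the lowest ratio over other mesenchyme (-2.17). It stood at 5.61 CPM in members, 60.1 in other mesenchyme, 18.3 in remaining mesenchyme and 134 in papilla-like cells. Its log2 ratio over remaining mesenchyme was -0.86, under 2-fold. *Sostdc1*, an inhibitor of BMP and Wnt signaling, was at 116 CPM against 434 (-1.81), and at 425 in remaining mesenchyme and 440 in papilla-like cells. *Penk* (-1.60), which encodes proenkephalin, was likewise close in the latter groups, at 389 and 403 CPM, and at 122 in members. *Lgals7*, a galectin, was at 72.6 CPM against 317 (-1.99). *Cxxc5* (-1.98), *Hs3st6* (-1.80), *Igfbp3* (-1.79), *Itga6* (-1.69), *Tfap2c* (-1.50) and *Thy1* (-1.49) were also among the 10 lowest. Over remaining mesenchyme *Itga6* (-0.84) and *Tfap2c* (-0.88) were, like *Dlx2*, under 2-fold.

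Against remaining mesenchyme, 4230 genes passed the filter, and 23 were at least 2-fold higher (0.544%) and 11 at least 2-fold lower (0.26%). *Igfbp5* (2.15), *Epha3* (1.54), *Sox9* (1.34), *Slc1a3* (1.33), *Kctd12* (1.31) and *Maf* (1.27) were among those higher, and *Sostdc1* (-1.79), *Osr1* (-1.74), *Penk* (-1.59) and *Lgals7* (-1.37) among those lower. Against papilla-like cells, which are deeper, 5717 genes passed, 276 were at least 2-fold higher (4.83%) and 168 lower (2.94%). These comparisons share the members, and their values are given side by side only.

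Gene lists of osteoblast, follicle and signaling biology were then read against the same background. Of the osteoblast transcription factors, 9 of 17 outside the rule passed the filter, 3 were at least 2-fold higher and none lower, with a median of -0.11. Over remaining mesenchyme 1 was 2-fold higher and the median was 0.08. *Mef2c*, a regulator of bone and muscle genes, stood at 276 CPM against 106 (1.30) and *Zeb2* at 485 against 227 (1.06). *Msx1*, a homeobox gene of dental mesenchyme, was at 265 CPM against 355 (-0.41), *Ebf1* at 149 against 210 (-0.47) and *Cbfb*, the cofactor of RUNX2, at 41.7 against 42.5 (-0.02). *Sp7*, the osteoblast factor downstream of RUNX2, did not pass the filter. It had 129 UMIs in members and 23.4 CPM (19.5 to 27.8), against 7.43 (5.95 to 9.17) in other mesenchyme and 7.21 (4.97 to 10.1) in papilla-like cells.

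**Figure D2:**
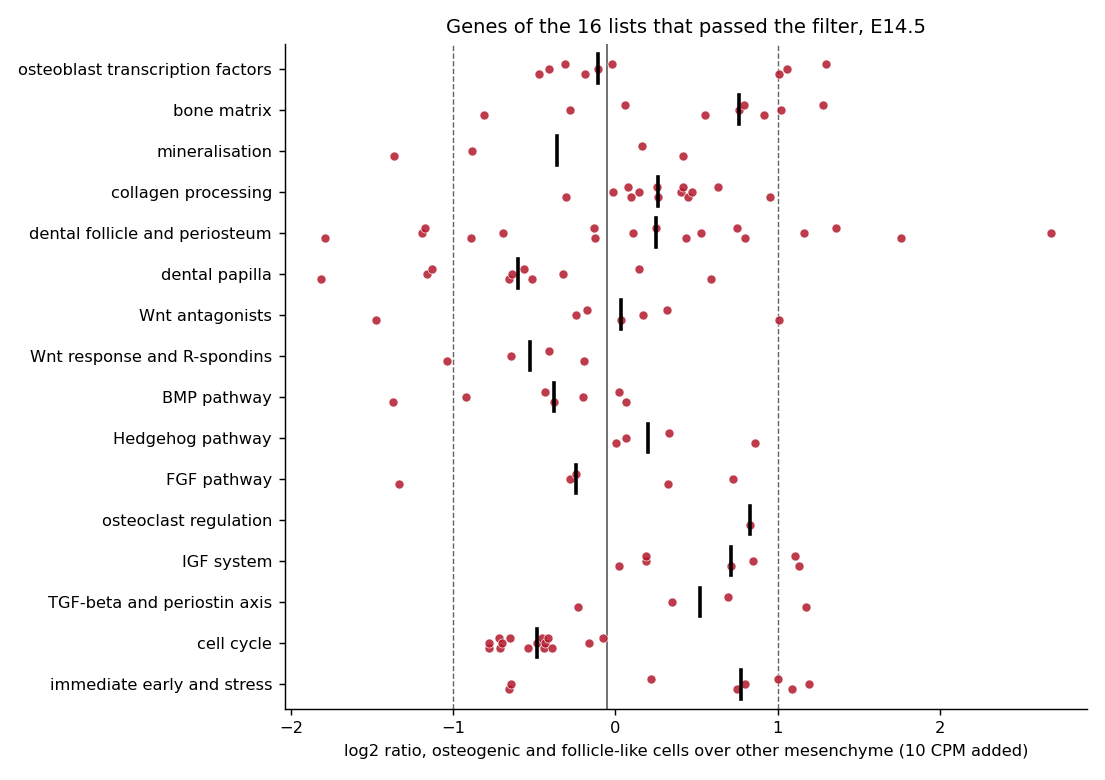
log2 ratio of osteogenic and follicle-like cells over other mesenchyme at E14.5 for each gene that passed the filter, outside the rule, in 16 lists. Points are genes, black bars list medians, the grey line the median of all 4655 genes (-0.05) and dashed lines a 2-fold difference. Bone matrix and IGF genes lie mostly to the right, all 15 cell cycle genes lie to the left, and the dental follicle list spreads from -1.79 to 2.69.

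Bone matrix genes had a median log2 ratio of 0.76 over the 9 of 22 that passed, 7 of which were above 0, 2 at least 2-fold higher and none 2-fold lower. *Col1a1*, the main collagen of bone, stood at 863 CPM against 421 (1.02, 0.96 to 1.07) and *Col1a2* at 695 against 397 (0.79). *Col12a1* was at 73.0 against 24.2 (1.28) and *Col5a2* at 535 against 279 (0.92). *Bgn* (-0.28) and *Col11a1* (-0.81) were below 0. Over remaining mesenchyme the median of the list was 0.31, with 7 of 9 above 0 and none 2-fold higher, *Col12a1* at 0.88 and *Col1a1* at 0.60. Over other mesenchyme it was 0.34 as the mean of the cells' own CPM and 0.31 with no filter on genes. It was 0.31 with the rule on cells thinned to 2000 UMIs and -0.057, over 7 genes, at 1000 UMIs.

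Several genes of mineralizing osteoblasts outside the rule were at or near 0. Among 5522136 UMIs of members, *Bglap*, *Bglap2*, *Dmp1*, *Mepe* and *Phex* had 1 UMI each, under the 0.543 CPM that 3 counts make. *Spp1*, osteopontin, had 55 UMIs and 9.96 CPM (7.50 to 13.0), less than in other mesenchyme (36.7, 33.3 to 40.4) and papilla-like cells (58.1, 51.4 to 65.6). *Ifitm5*, an early bone membrane protein, had 52 UMIs. Of 12 mineralization genes 4 passed the filter, none at least 2-fold higher, with a median of -0.36 (0.23 over remaining mesenchyme, where 2 passed). *Car2*, a carbonic anhydrase, was at 13.0 CPM against 49.4 (-1.37), *Enpp1*, which makes pyrophosphate, at 12.1 against 30.8 (-0.88), and the annexins *Anxa6* (0.42) and *Anxa5* (0.17) above 0. *Runx2*, *Alpl* and *Ibsp* are genes of the osteoblast program, of which *Ibsp* encodes a matrix protein. They helped to choose the cells and so cannot bear out the name osteogenic. Collagen processing genes had a median of 0.26, with 11 of 13 above 0 and none past 2-fold; the highest was *Plod2*, a lysyl hydroxylase, at 213 CPM against 105 (0.95), and the lowest *Loxl1* (-0.30).

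The list of the dental follicle and periosteum had no common direction. Of 17 genes that passed, 4 were at least 2-fold higher, 3 at least 2-fold lower and 10 above 0, with a median of 0.25. The 4 were *Igfbp5*, *Epha3*, *Postn* and *Pth1r*, the receptor of parathyroid hormone and its related peptide, which stood at 41.7 CPM against 13.1 (1.16). *Osr2* was at 29.9 CPM against 80.1 (-1.18), *Osr1* at 18.3 against 54.6 (-1.19) and *Igfbp3* at 33.3 against 140 (-1.79). After thinning to 2000 UMIs the median was -0.25 over 10 genes in the same cells and -0.43 over 11 with the rule on thinned cells. The follicle side of the name thus rests on single genes, and the list as a whole did not set the cells apart. *Osr1* was at 2.19 CPM in papilla-like cells and 84.6 in remaining mesenchyme, so it was highest outside both rules.

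Of 10 dental papilla genes outside the rule that passed, none was at least 2-fold higher and 3 were at least 2-fold lower, *Sostdc1*, *Pax9* and *Etv4*, with a median of -0.60. *Pax9*, required for tooth mesenchyme, was at 39.5 CPM against 101 (-1.16) and *Etv4*, a target of FGF signaling, at 6.52 against 26.1 (-1.13). *Lhx8* was the highest of the list, at 57.2 CPM against 34.6 (0.59), and *Wnt5a* stood at 236 against 213 (0.14). *Bmp4* was at 42.0 CPM against 64.2 (-0.51) and *Inhba*, a subunit of activin, at 246 against 393 (-0.66). Over remaining mesenchyme 7 genes of the list passed and 1 was at least 2-fold lower, *Sostdc1*, with a median of -0.27. Over papilla-like cells 13 passed and 7 were at least 2-fold lower, with a median of -1.05. There 2 were at least 2-fold higher in members, *Lhx8* (1.49) and *Nnat* (1.02). The rule limited papilla genes in members, so a lower level of other genes of the same cells is not independent of it.

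Ligands, receptors and targets of the signaling pathways differed in direction. Among Wnt antagonists, *Sfrp1* was at 65.7 CPM against 27.6 (1.01) and *Dkk1* at 8.33 against 41.1 (-1.48), while *Dkk2*, *Frzb*, *Igfbp4*, *Wif1* and *Sfrp2* lay between -0.24 and 0.32. Of the Wnt targets and R-spondins, none of 4 was above 0; *Lef1* was at 54.0 CPM against 121 (-1.04) and *Axin2* at 23.9 against 28.7 (-0.19, -0.40 to 0.02). In the BMP pathway the receptors *Bmpr1a* (0.02) and *Bmpr2* (0.07) were level, and the target genes were lower, *Id1* at 55.2 CPM against 159 (-1.37) and *Id3* at 307 against 590 (-0.92). In the FGF pathway the receptor *Fgfr2* was at 32.2 CPM against 15.5 (0.73), *Fgfr1* at 201 against 158 (0.33), and the feedback phosphatase *Dusp6* at 8.69 against 37.1 (-1.33). Hedgehog genes were level or higher, with *Gli3* at 109 CPM against 55.9 (0.86), *Gas1* at 75.9 against 58.2 (0.33) and the target *Ptch1* at 299 against 285 (0.07). Over remaining mesenchyme, which holds no papilla-like cells, no gene of these lists that passed the filter was past 2-fold. There *Sfrp1* had 0.70, *Lef1* -0.55, *Id1* -0.82, *Id3* -0.54, *Fgfr2* 0.40, *Gli3* 0.68 and *Gas1* -0.12. *Dkk1* and *Dusp6* did not pass the filter in that comparison.

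In the IGF system all 7 genes that passed were above 0 over other mesenchyme, 2 at least 2-fold higher, with a median of 0.71. Over remaining mesenchyme 5 of 7 were above 0 and none 2-fold higher, with a median of 0.40. The list summed to 2912 CPM in members, 1544 in other mesenchyme, 1979 in remaining mesenchyme and 776 in papilla-like cells. *Igf1* stood at 128 CPM in members, 53.1 in other mesenchyme and 2.40 in papilla-like cells (1.13 over other mesenchyme). *H19*, the imprinted noncoding RNA next to *Igf2*, was at 1700.4 CPM against 784 (1.11), *Igf2* at 687 against 377 (0.85) and *Igf2r* at 86.6 against 49.0 (0.71). *Igf1r* (0.19), *Igfbp2* (0.19) and *Igfbp7* (0.02) were near 0, and *Igfbp2* (-0.19) and *Igfbp7* (-0.18) were below 0 over remaining mesenchyme. In the TGF-beta list, *Tgfb2* was at 93.1 CPM against 35.7 (1.17), *Ltbp1* had 0.70 and *Tgfb1* -0.23. Over remaining mesenchyme *Tgfb2* had 0.76 and *Ltbp1* 0.34, and no gene of the list that passed was past 2-fold. Of the genes that regulate osteoclasts 1 of 6 passed, *Cxcl12*, at 86.9 CPM against 44.5 (0.83). *Tnfsf11*, which encodes RANKL, had 83 UMIs and 15.03 CPM (11.97 to 18.6) against 3.76 (2.73 to 5.05), and its decoy receptor *Tnfrsf11b* had 2 UMIs in members.

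All 15 cell cycle genes were below 0 and none past 2-fold, with a median of -0.49. *Cenpf* (-0.08) and *Mki67*, at 208 CPM against 235 (-0.16), were the nearest to 0, and *Tyms* (-0.78) and *Pclaf* (-0.78) the farthest. Of 8 immediate early and stress genes 2 were at least 2-fold higher, *Fosb* at 70.8 CPM against 25.4 (1.19) and *Fos* at 412 against 189 (1.09); over remaining mesenchyme none was. *Junb* (0.999) and *Jun* (0.80) were also above 0, and the heat shock genes *Hspa1a* (-0.65) and *Hspa1b* (-0.65) below. Immediate early genes can be induced during dissociation; their part in the other differences was not tested.

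Markers of other cell types were summed in each group. Cartilage markers came to 126 CPM in members (116 to 135), 41.8 in other mesenchyme (38.2 to 45.7) and 14.2 in papilla-like cells, with 7 of 10 detected in members and *Acan*, *Matn1* and *Snorc* at 0. *Sox9* is 1 of the 10 and also among the 15 genes named above, and *Col2a1*, which defines cartilage, was at 11.8 CPM. Tendon markers, all 5 detected, came to 79.9 CPM (72.6 to 87.7) against 40.8 (37.2 to 44.6) in other mesenchyme. Immune markers, all 8 detected, came to 46.0 CPM against 22.8, endothelial markers, all 8, to 42.2 against 24.8, and epithelial markers, all 10, to 86.4 against 66.0. Of the members, 46 had at least 3 markers of another type; without such cells in either group 78 genes were at least 2-fold higher and 45 lower. Hemoglobin and other erythroid markers were at 10277 CPM in members and 10915 in other mesenchyme.

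Members were clustered on their own expression, with the genes of the rule left out, to see how they varied among themselves. At a resolution of 0.4 they fell into 6 clusters, whose leading genes are descriptions since they made the clusters. The largest, cluster 0, held 560 cells and had *Pdzrn4*, *Maf*, *Dpep1* and *Ncam1* among its leading genes. It held 46.0% of the *Sfrp4* UMIs, 47.8% of those of *Matn4* and 13.9% of those of *Stmn2*, for 35.0% of the cells. *Maf* stood at 339 CPM in it and 95.5 in the other members, and *Ncam1* at 805 and 253. *Dlx5*, a homeobox gene of osteoblasts, was at 62.9 CPM and *Tnfsf11* at 28.6.

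Cluster 1, with 355 cells, was led by the division genes *Nusap1*, *Cenpf*, *Ube2c*, *Top2a* and *Hmmr*, and its cell cycle list summed to 6486 CPM against 342 in cluster 0. Its cells were the deepest of the larger clusters, at a median of 4436 UMIs. All 6 genes of the rule had UMIs in them, *Runx2* at 367 CPM and *Alpl* at 126. This cluster also held the 8 members with at least 3 immune markers and 10 of the 11 with at least 3 endothelial markers. Immune markers summed to 135 CPM in it and endothelial markers to 105, against 46.0 and 42.2 over all members.

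Cluster 2 (346 cells) was led by *Aspn*, *Ogn*, *Osr1*, *Ebf2* and *Hs6st2*. *Aspn* and *Ogn*, small proteoglycans of connective tissue, stood at 113 and 86.0 CPM there and at 8.29 and 9.63 in the other members, and *Osr1* at 60.5 and 8.29. This cluster held 64 of the 101 *Osr1* UMIs and 22 of the *Ibsp* UMIs (1.45%). *Stmn2* was at 425 CPM and *Sox9* at 142, against 23.4 in cluster 3. Cluster 3 (284 cells) was led by *Cxcl14*, *Dkk2*, *Bmp3*, *Hpgd* and *Igf1*. The Wnt antagonist *Dkk2* was at 186 CPM there and 34.8 in the other members, *Bmp3*, a BMP that opposes osteogenic signaling, at 111 and 19.5, and *Igf1* at 288 and 97.3. *Stmn2* was at 431 CPM in it, near that of cluster 2, and *Ibsp* at 212.

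**Figure D3:**
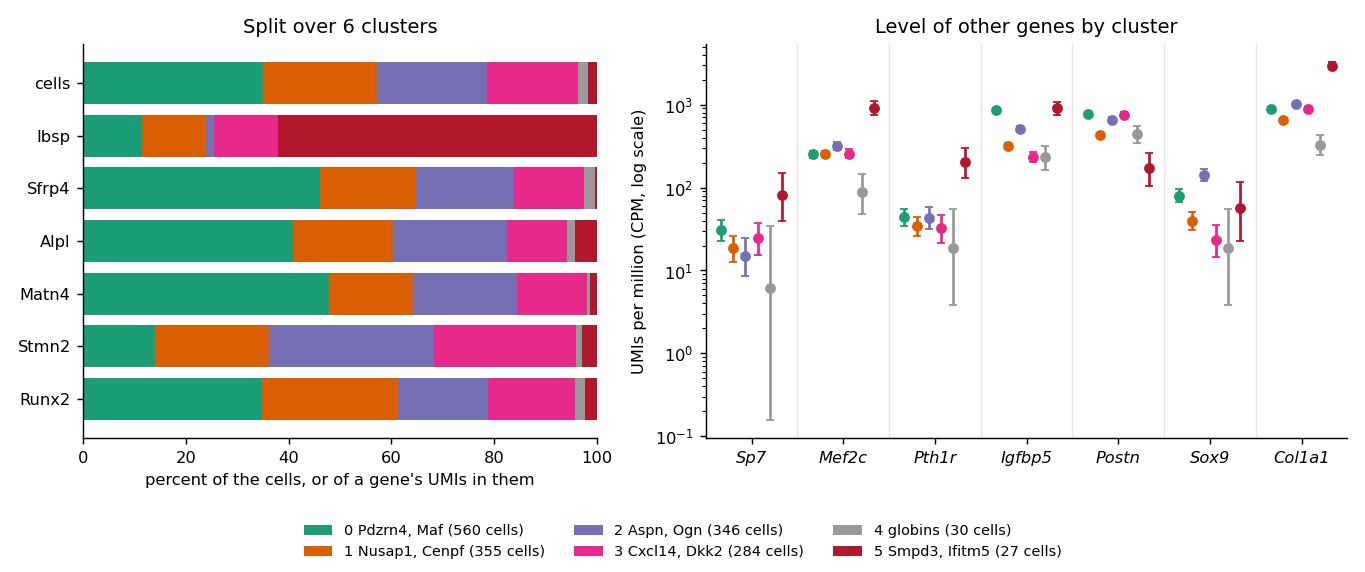
Left, the share of the cells and of the UMIs of each gene of the rule that fell into each of 6 clusters of osteogenic and follicle-like cells, in percent. Right, levels of 7 other genes in the same clusters, in CPM on a log scale with exact 95% Poisson intervals. Cluster 5, with 27 cells, held 62.0% of the *Ibsp* UMIs and 0.245% of those of *Sfrp4*, and had the highest *Sp7*, *Mef2c*, *Pth1r* and *Col1a1*; the *Sp7* interval (39.0 to 150) meets that of cluster 0 (22.6 to 40.3).

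The smallest cluster, cluster 5, held 27 cells, 938 of the 1513 *Ibsp* UMIs (62.0%) and 6 of the 2453 *Sfrp4* UMIs (0.245%). It was led by *Smpd3* (1196 CPM against 11.3 in the other members), *Ifitm5* (390 against 0.741), *Fabp3*, *Panx3* and *Cadm1*. *Smpd3*, a sphingomyelinase needed for skeletal mineralization, *Ifitm5* and *Panx3* are genes of bone-forming cells. *Ibsp* had a UMI in 66.7% of its cells and stood at 7630.2 CPM (7149.7 to 8134.6), against 212 in cluster 3 and 20.8 in cluster 2. *Sp7* was at 81.3 CPM (39.0 to 150), *Alpl* at 374 (274 to 499), *Mef2c* at 911 (750 to 1096), *Pth1r* at 203 (132 to 300) and *Col1a1* at 2953 (2657 to 3273).

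*Sfrp4* was at 48.8 CPM (17.9 to 106) and *Postn* at 171 (106 to 261) in cluster 5, against 703 and 770 in cluster 0. *Bglap*, *Bglap2* and *Dmp1* had 0 UMIs in it, which by the limit of 3 counts allows up to 24.4 CPM. Cartilage markers came to 268 CPM (185 to 377), with *Acan*, *Matn1*, *Col9a1*, *Snorc* and *Comp* at 0, and *Col2a1* at 130 (74.4 to 211). Immune and glial markers were at 0 in it. Without these 27 cells the median of the bone matrix list was 0.69, and 75 genes were at least 2-fold higher and 44 lower than in other mesenchyme. *Smpd3* also had 216 UMIs in papilla-like cells (47.2 CPM), where *Ibsp* had 0.

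Cluster 4 (30 cells) was led by hemoglobin genes, with 318395 CPM of globins, which enter the total behind its other CPM values. Without it 76 genes were at least 2-fold higher in members and 51 lower. At a resolution of 0.2, all 560 cells of cluster 0, 246 of cluster 2 and 282 of cluster 3 fell into 1 cluster of 1091, so the division among clusters 0, 2 and 3 depends on the resolution. At 0.8, 233 cells of cluster 0 and 173 of cluster 2 fell into separate clusters.

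The same rule was applied at the other stages. At E11.5, whole mandibles gave 7 such cells of 6573 (0.106%, 0.0428 to 0.219%), and at E16.5 there were 1285 of 4511 (28.5%, 27.2% to 29.8%). E16.5 cells were deeper, with a median of 6098 UMIs. With cells thinned to 2000 UMIs, *Ibsp* was detected in 11.8% of the E14.5 cells and 10.0% of the E16.5 cells, *Sfrp4* in 54.7% and 32.6%, *Alpl* in 33.4% and 20.7%, *Matn4* in 11.3% and 19.3%, *Stmn2* in 29.8% and 13.5% and *Runx2* in 57.4% and 53.5%. At this depth *Matn4* was the only gene of the 6 detected more often at E16.5. The cells had met the rule before thinning, at different depths. Without thinning, *Matn4* was detected in 16.9% of the E14.5 cells and 44.8% of the E16.5 cells. *Runx2* was then detected in 75.4% and 88.3%, and *Ibsp* in 14.42% and 15.02%. *Sfrp4*, *Alpl* and *Stmn2* were detected less often at E16.5 with and without thinning. The part of depth in these differences was not tested.

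Genes outside the rule were compared with other mesenchyme at each stage, which shares no cells between stages. Other mesenchyme differed in make-up: remaining mesenchyme was 2037 of its 2669 cells at E14.5 and 982 of 1061 at E16.5. The part of this in the differences between stages was not tested. Of all 6941 genes that passed the filter at E16.5, 3187 were above 0, 3754 below 0 and 0.663% at least 2-fold higher. Of the 72 genes at least 2-fold higher at E14.5, 69 passed at E16.5. Of these, 67 were above 0 there and 16 at least 2-fold higher, with a median of 0.62. *Igfbp5* (2.22), *Maf* (1.93), *Slc1a3* (1.76), *Igf1* (1.75), *Epha3* (1.54), *Ncam1* (1.39), *H19* (1.26) and *Postn* (1.22) were among the 16. Of the 47 lower genes 40 passed, 30 were below 0 and 1 at least 2-fold lower, beside 0.072% of all genes; this was *Car2*, at 27.6 CPM against 104 (-1.60).

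**Figure D4:**
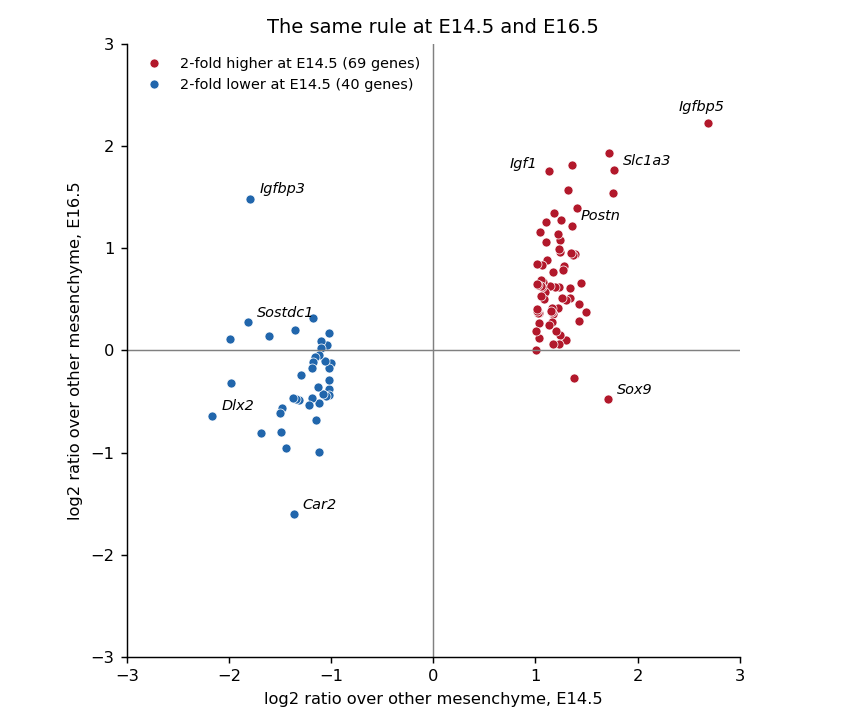
log2 ratio over other mesenchyme at E14.5 (horizontal) and E16.5 (vertical), with 10 CPM added, for the 69 higher (red) and 40 lower (blue) genes at E14.5 that passed the filter at both stages. *Igfbp5* and *Slc1a3* lie at the upper right, *Igfbp3* at the upper left (-1.79 and 1.48), and *Sox9* at the lower right (1.71 and -0.48).

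*Igfbp3*, another IGF binding protein, stood at 33.3 CPM in members and 140 in other mesenchyme at E14.5, and at 207 and 67.7 at E16.5. *Sox9* was at 67.9 against 13.8 CPM at E14.5 and 49.8 against 73.2 at E16.5. *Dlx2* kept its side, with 57.5 against 95.2 CPM at E16.5 (-0.64). *Sostdc1* was at 467 CPM in E16.5 cells of the rule and 384 in other mesenchyme (0.28). Whether these differences between stages exceed the spread between embryos was not tested.

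Between the cells of the rule at E16.5 and at E14.5, 6643 genes passed the filter, 115 were at least 2-fold higher at E16.5 (1.73%) and 27 lower (0.406%), with a median of 0.09. The 5 largest log2 ratios were *Col8a1* (19.2 CPM at E14.5 and 696 at E16.5; 4.595), *Sfrp2* (34.4 and 686; 3.97), *Smoc2* (18.1 and 307; 3.50), *Lypd1* (3.48) and *Dlx6os1* (2.97). *Hbb-y* (-7.49) and *Hba-x* (-4.63), embryonic globins, were lowest. At E14.5 *Hbb-y* was at 65416 CPM in the 30 cells of cluster 4 and 266 in the other members, and *Hba-x* at 7756 and 31.5. At E16.5 they were at 2.04 and 0.751 CPM. Next came *Pax3* (109 CPM at E14.5 and 25.2 at E16.5, -1.75), *Nnat* (-1.62) and *Igf2bp1* (-1.58). In the BMP list 6 of 12 genes were at least 2-fold higher at E16.5 and none lower, with a median of 1.01, including *Bambi* (2.05), *Id1* (1.99), *Id3* (1.56) and *Smad7* (1.05). The BMP list was also higher at E16.5 in other mesenchyme. It summed to 913 CPM at E14.5 and 2218 at E16.5 in cells of the rule, and to 1353 and 2471 in other mesenchyme. In the dental follicle list 7 of 20 were higher and 1 lower, with *Osr2* at 1.47, *Lum* at 1.46 and *Postn* at -1.02. *Bglap* had 19 UMIs in E16.5 cells (2.04 CPM, 1.23 to 3.18), and *Sp7* was at 26.2 CPM (23.0 to 29.7), near its E14.5 level.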

How the data were processed

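Per the methods of the study, the authors aligned reads to mm10 with Cell Ranger 4.0.0. They deposited UMI counts, not normalized, as a single matrix for each stage with 32285 genes. Cells with under 700 genes or over 20% mt- UMIs were removed, which is the filter of the study. The counts as deposited were summed per group and given as CPM; log2 ratios had 10 CPM added to both sides. The filter on low values kept genes detected in 10% or more of the cells of 1 group, with 50 counts or more over both. Members were clustered with scanpy 1.11.5 and leidenalg 0.10.2 (2000 variable genes, 20 components, 15 neighbors, genes of the rule and mt- genes left out), and intervals were computed with scipy 1.17.1 in python 3.11.15.

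The rule, the lists and the cell type markers were chosen with earlier results of these data known. Genes named are those of the rule, the 15 largest and 10 smallest ratios over other mesenchyme, up to 4 largest and 2 smallest of each list, the 5 largest and 5 smallest between stages, the 5 leading genes of each cluster, and defining markers of other cell types. Some genes that meet these rules are not reported here. Other named genes, such as *Sp7*, *Spp1*, *Bglap* and *Tnfsf11* below the filter, were chosen after their values were seen. The 16 lists held 246 entries, 2 of which are not gene symbols of the matrix used here. The study tests cells with a Wilcoxon test; cells are not replicates and could not be assigned to samples, so no test was made. Ratios and intervals were checked on simulated counts. These were Poisson draws without further spread between cells or embryos, so the check covers the calculation only. Promoter sequences are RefSeq's.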

Additional observations from a re-analysis of the deposited data

Results flagged for a closer look

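Differences between stages were picked out where a named gene was at least 2-fold apart from other mesenchyme at E14.5 and lay on the opposite side of 0 at E16.5, with an interval that excluded 0. *Igfbp3* had a log2 ratio of -1.79 at E14.5 and 1.48 at E16.5, *Sox9* 1.71 and -0.48, *Cthrc1* 1.38 and -0.27, and *Sostdc1* -1.81 and 0.28. Cells could not be assigned to samples within a stage, so the difference was not tested, and stage and sample preparation cannot be told apart. Other mesenchyme also differed in make-up between the stages, as given above.

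Cells above the epithelial limit were left out of every comparison of groups, but carried the genes of the rule too. Of 825 such cells, 66 (8%, 6.24% to 10.1%) had a UMI for at least 2 of the 6 genes. Their median depth was 10212.5 UMIs, against 5386 over all 825, and they held 121 UMIs of *Runx2*, 61 of *Alpl* and 16 of *Ibsp*. Whether these are doublets, free RNA or expression was not tested.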

How the results depend on the processing

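No paired analysis was possible because no barcode names its sample within a stage, and leaving out a replicate was not run for the same reason. The share of members, 26.3%, was 21.9% with at least 200 genes and no limit on mt- UMIs, 19.6% and 10.52% with cells thinned to 2000 and 1000 UMIs before the rule, 12.3% with 3 of the 6 genes, 21.4% with 2 mesenchyme genes required, 22.8% without *Stmn2* and 32.6% without cells with 3 markers of another type, epithelial cells of the total included. The 72 higher genes were 14 and 3 after thinning to 2000 and 1000 UMIs, 35 when thinned to 2000 after the rule, 112 with 1 CPM added, 37 as the mean of the cells' own CPM and 222 at 1.5-fold; the 47 lower genes were 17, 9, 15 and, at 1.5-fold, 227. Against papilla-like cells the 276 higher genes were 141 with 1000 UMIs and 417 with no filter on genes, and the 168 lower genes 300 with 1 CPM added. The bone matrix median, 0.76, was 0.31 and -0.057 at 2000 and 1000 UMIs, 0.34 as the mean of the cells' own CPM and 0.31 with no filter on genes, and the dental follicle median -0.43 at 2000 UMIs and -0.25 when thinned after the rule; fewer genes of both lists passed the filter at 1000 UMIs, and of the follicle list at 2000, and the cause was not tested. Called by the other 5 genes, the ratios were 2.49 for *Ibsp*, 1.57 for *Sfrp4*, 1.97 for *Alpl*, 1.63 for *Matn4*, 2.03 for *Stmn2* and 0.93 for *Runx2*. Of 136 named genes, 58 were past 2-fold, and their 870 values over 15 alternatives all kept their sign, 64 moving by over 1.5 times. The 58 include the 6 genes and the 5 papilla genes of the rule. The choice of cells largely set the sign of those genes, so their values are no check. Others of the 58 were named for their large or small ratios in the same cells. The alternatives reuse cells of the same matrix, so the kept signs are no independent check either. Among the named genes under 2-fold, 95 values changed sign. Thinning after the rule, and leaving out cluster 4 or 5, were chosen after seeing the data.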
